A study of Mus musculus with 12 samples.

Results

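Genes of the respiratory chain complexes were examined in lists of peaks of histone H3 lysine 9 acetylation (H3K9ac) from adult mouse liver. The members were the protein-coding genes of the GENCODE M21 annotation of mm10 on nuclear chromosomes whose symbols start with Nduf, Uqcr, Cox4, Cox5, Cox6, Cox7 or Cox8, together with Sdha, Sdhb, Sdhc and Sdhd. This gave 76 of 21911 protein-coding gene symbols, by a rule that reads symbols and no measured value. By their symbols 7 encode core subunits of complex I, 29 accessory subunits of complex I and 8 assembly factors of complex I (Ndufaf1 to Ndufaf8). A further 4 encode complex II, 8 complex III and 12 complex IV (Ndufa4 included), and 8 encode isoforms with expression restricted to other tissues or conditions.

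The respiratory chain passes electrons from NADH and succinate to oxygen through complexes I to IV of the inner mitochondrial membrane and pumps protons that drive ATP synthesis. Most of its subunits are encoded in the nucleus and imported, and hepatocytes, which carry many mitochondria, use the chain heavily. H3K9ac is a histone mark found at active promoters, usually on the nucleosomes next to the transcription start site (TSS).

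H3K9ac ChIP-seq had been carried out on untreated, formaldehyde-fixed livers of adult mice of 2 inbred strains, C57BL/6J (B6), which is the strain of the reference genome, and MSM/Ms (MSM), and of their reciprocal F1 hybrids. There were 2 libraries of B6, 2 of MSM, 1 of F1 BM (B6 mother and MSM father) and 1 of F1 MB (MSM mother and B6 father). The study compared the extent of acetylated promoter regions between the strains. Each parental library was from a separate mouse and each cross had a single F1 library, so F1 values have no replicate error.

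The 6 lists held from 11619 peaks over 6.28 Mb (B6 replicate 2) to 22968 peaks over 16.0 Mb (B6 replicate 1), so that the B6 libraries stood at both ends, and the lists hold no read counts. Promoters of 4 of 5 hepatocyte markers (Alb, Ttr, Apoa1 and Cyp2e1) carried peaks in all 6 lists, and the fifth, Hnf4a, did so at the start of its principal transcript. No marker of Kupffer cells, endothelial cells, stellate cells or cholangiocytes (0 of 12 in all) had peaks in all 6 lists, although Kdr had them in 5 and Stab2 in 4. These 12 were measured at annotated gene starts only, so their count is not comparable with the Hnf4a result at the principal start. The livers were bulk tissue, in which fewer cells of a type and less mark per cell cannot be told apart.

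Most respiratory chain promoters were acetylated in every liver. A peak within 2 kb of the TSS was present at 67 of 76 members in B6 replicate 1 (45.2% of all genes had one), 56 in B6 replicate 2 (28.8%), 64 in MSM replicate 1 (36.6%) and 63 in MSM replicate 2 (37.2%). It was present at 62 members in F1 BM (36.4% of all genes) and at 62 in F1 MB (32.6%). In all 6 lists, 53 members (69.7%) had such a peak against 24.4% of all genes, and 9 members had none in any list against 53.2% of all genes. The remaining 14 had peaks in 1 to 5 lists. When each list was limited to its strongest peaks so that all covered the same length, the 53 became 30 (11.9% of all genes), and they became 46 when all lists held the same number of peaks (19.7% of all genes).

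**Figure D1:**
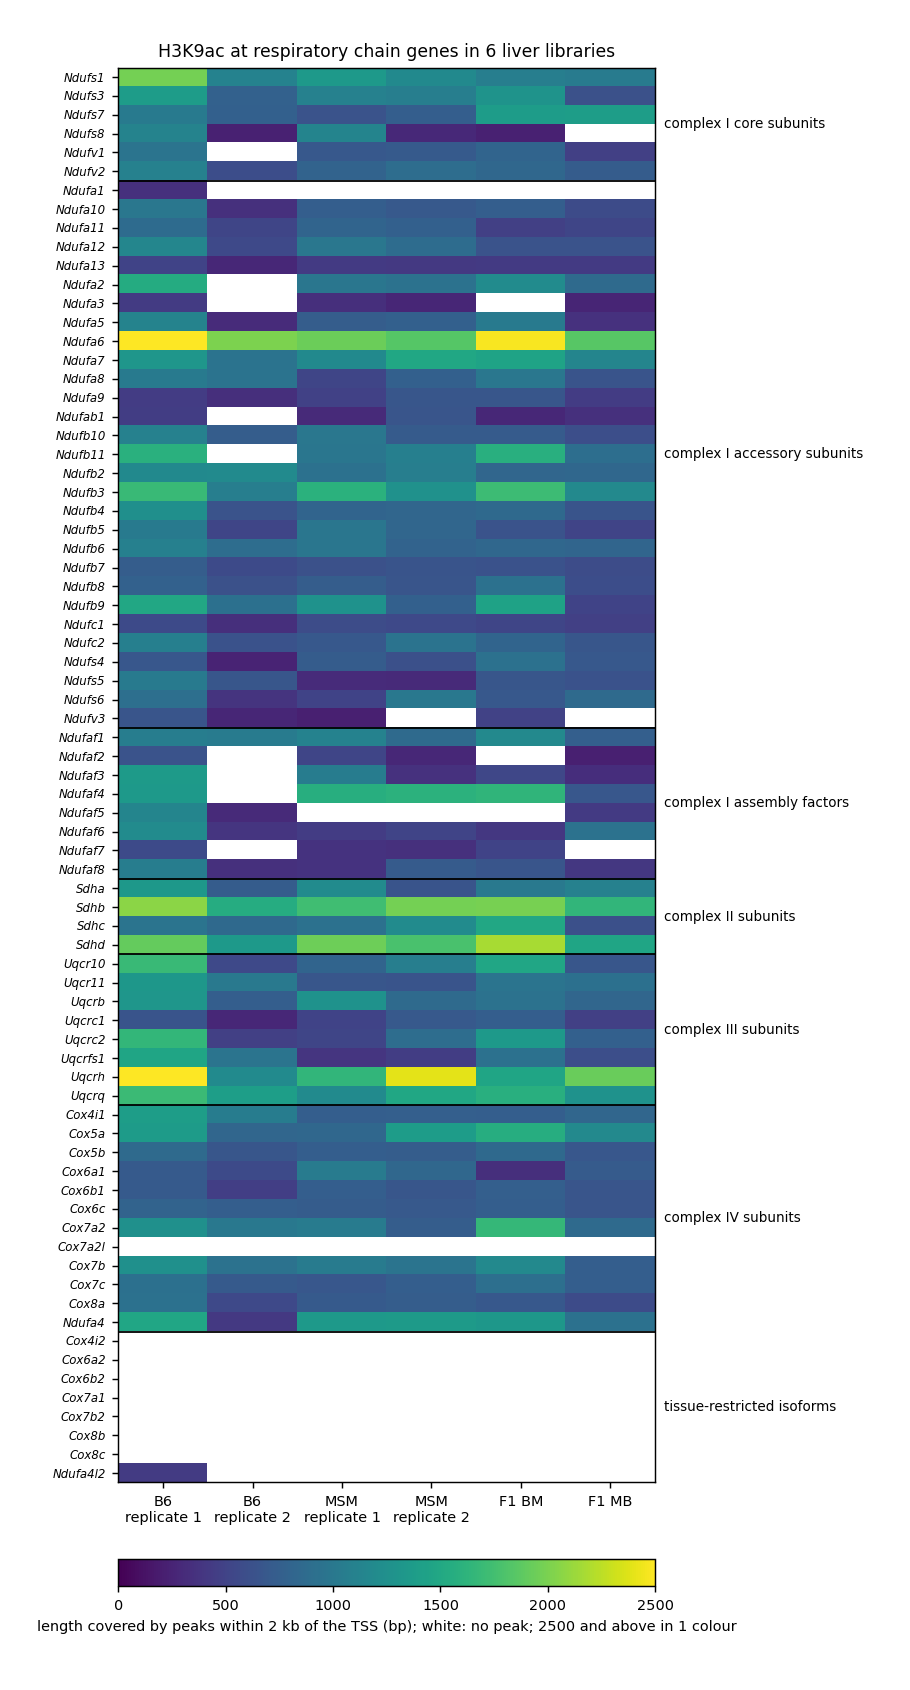
Length (bp) covered by H3K9ac peaks within 2 kb of the TSS for 75 of the 76 members (rows, by role) in each of the 6 libraries (columns), with white where there was no peak. Of these, 53 are coloured in all 6 columns, and 7 of the 8 tissue-restricted isoforms at the bottom are white throughout.

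By role, all 4 complex II genes and all 8 complex III genes had peaks in all 6 lists, as did 11 of 12 complex IV genes and 23 of 29 accessory subunits of complex I. Among the core subunits of complex I the count was 4 of 7, and among its assembly factors 3 of 8, beside 24.4% of all genes. Without B6 replicate 2, the shortest list, these counts became 5 of 7 and 5 of 8, beside 28% of all genes. None of the 8 tissue-restricted isoforms had a peak in all 6 lists.

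Many members share their promoter region with another gene, so that a peak there cannot be assigned to either gene alone. Another protein-coding TSS lay within 1 kb of 29 of 76 members, against 2742 of 21911 genes. Of these 29 members, 21 (72.4%) had peaks in all 6 lists, where the share among all genes with such a neighbour was 50.7%. Of the 47 members with no neighbour that close, 32 (68.1%) had them, against 20.6% of all such genes.

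Sequences of promoters are shown for members that hold many matches to motifs long associated with respiratory genes, for a member that differed between the strains (Uqcr11), and for Cox8a with its muscle counterpart Cox8b. The last 3 were chosen after their values were seen. Each runs 5′ to 3′ on the strand of the gene, from 170 bases before the RefSeq start to 30 bases after the more upstream of the RefSeq and GENCODE starts (RefSeq sequence, GRCm38.p6). Capitals mark matches to GCGCANGCG (bound by NRF1), CCGGAAG (bound by GABP and other ETS factors), AAGATGGCG (YY1), GGGCGG (SP1) or TATAAA (bound by TBP), searched on both strands. Matches may overlap, as in the palindrome read on both strands in Ndufaf4 and Cox6a1.
Cox6a1: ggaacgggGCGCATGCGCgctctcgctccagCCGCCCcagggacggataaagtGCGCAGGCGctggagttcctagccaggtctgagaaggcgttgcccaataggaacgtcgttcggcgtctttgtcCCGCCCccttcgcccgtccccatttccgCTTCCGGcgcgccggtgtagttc
Ndufaf4: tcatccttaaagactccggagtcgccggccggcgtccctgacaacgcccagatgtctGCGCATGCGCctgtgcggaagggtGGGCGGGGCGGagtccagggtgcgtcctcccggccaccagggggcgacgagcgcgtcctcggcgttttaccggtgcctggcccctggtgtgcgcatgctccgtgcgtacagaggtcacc
Sdha: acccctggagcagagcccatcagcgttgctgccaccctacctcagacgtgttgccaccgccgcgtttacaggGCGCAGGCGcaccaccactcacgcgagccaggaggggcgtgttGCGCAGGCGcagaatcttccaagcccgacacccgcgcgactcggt
Sdhb: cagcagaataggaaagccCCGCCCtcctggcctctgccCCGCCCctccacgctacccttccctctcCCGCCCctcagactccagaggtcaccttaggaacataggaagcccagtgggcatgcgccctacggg
Sdhd: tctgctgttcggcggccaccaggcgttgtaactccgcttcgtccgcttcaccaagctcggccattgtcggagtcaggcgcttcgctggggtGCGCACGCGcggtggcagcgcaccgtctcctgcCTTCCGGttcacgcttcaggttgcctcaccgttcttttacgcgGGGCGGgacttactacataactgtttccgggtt
Uqcr11: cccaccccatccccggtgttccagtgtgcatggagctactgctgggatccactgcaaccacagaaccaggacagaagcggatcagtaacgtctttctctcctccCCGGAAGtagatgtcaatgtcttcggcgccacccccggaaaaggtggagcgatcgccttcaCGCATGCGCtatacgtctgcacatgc
Cox8a: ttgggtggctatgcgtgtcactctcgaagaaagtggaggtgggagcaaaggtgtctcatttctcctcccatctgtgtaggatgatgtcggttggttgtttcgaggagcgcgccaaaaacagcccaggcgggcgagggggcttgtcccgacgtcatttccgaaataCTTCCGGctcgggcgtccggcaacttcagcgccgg
Cox8b: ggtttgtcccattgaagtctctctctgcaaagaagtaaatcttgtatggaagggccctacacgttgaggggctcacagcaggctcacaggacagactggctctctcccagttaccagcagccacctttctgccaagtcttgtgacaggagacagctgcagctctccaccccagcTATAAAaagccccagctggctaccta

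These stretches lie at chr5:115348952-115349128 (minus strand, Cox6a1), chr4:24897913-24898112 (plus, Ndufaf4), chr13:74350251-74350410 (minus, Sdha), chr4:140961101-140961232 (plus, Sdhb) and chr9:50603820-50604019 (minus, Sdhd). Those of Uqcr11, Cox8a and Cox8b lie at chr10:80406801-80406991, chr19:7217587-7217786 and chr7:140900417-140900616, all on the minus strand. The Cox6a1 stretch holds 3 NRF1, 2 SP1 and 1 ETS match, Sdha 2 NRF1 matches, Sdhb 3 SP1 matches, and Sdhd 1 match each of NRF1, ETS and SP1. Ndufaf4 holds 2 overlapping NRF1 and 2 SP1 matches, and Uqcr11 holds 1 NRF1 and 1 ETS match. Cox8a, the ubiquitous isoform, holds 1 ETS match, and Cox8b, the isoform of heart and skeletal muscle, holds a TATAAA match alone. The Cox8b match begins 4 bases downstream of the annotated start, not upstream of it.

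RefSeq promoters (250 bases before to 50 after the start) could be matched to 61 of the 76 members. The NRF1 motif was in 15 of them (24.6%, against 8.58% of 21263 protein-coding promoters), the ETS motif in 13 (21.3% against 11.6%) and the YY1 motif in 6 (9.84% against 1.83%). The SP1 motif was in 29 (47.5% against 46.2%) and TATAAA in 6 (9.84% against 12.6%). An NRF1 or ETS match was present in 25 members (41.0%) and in 18.4% of all promoters. Member promoters had a median of 19 CpG dinucleotides against 13 over all promoters, and a median GC content of 57.3% against 56.3%. Of the 4 tissue-restricted isoforms with a promoter sequence, none held an NRF1, ETS or YY1 match, and their median was 8.5 CpG.

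Acetylation at the members lay mainly on the transcribed side of the start. The summit, the position of highest signal in a peak, of the strongest peak near each member was a median of 227 to 258.5 bp downstream of the TSS over the 6 lists. It was downstream in 83.9 to 92.1% of members with a peak, against 74.2 to 78.8% of all genes with a peak. By the annotation, summits fell in an intron of the gene at 24 to 29 members, in a coding exon at 10 to 16 and outside the gene at 5 to 10.

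Among the 53 members with peaks in all 6 lists, the position covered in most members lay 200 to 400 bp downstream in each list and was covered in 92.5 to 98.1% of them. The densest position over the 5341 genes with peaks in all 6 lists was covered in 64.9 to 88.9%. More sequence was covered downstream than upstream of the TSS at 48 to 51 of the 53 members, and at 76.7 to 80.1% of the 5341 genes. The TSS itself lay inside a peak in 7 to 20 of the 53 members (13.2 to 37.7%) and in 19.0 to 50.0% of the 5341 genes.

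**Figure D2:**
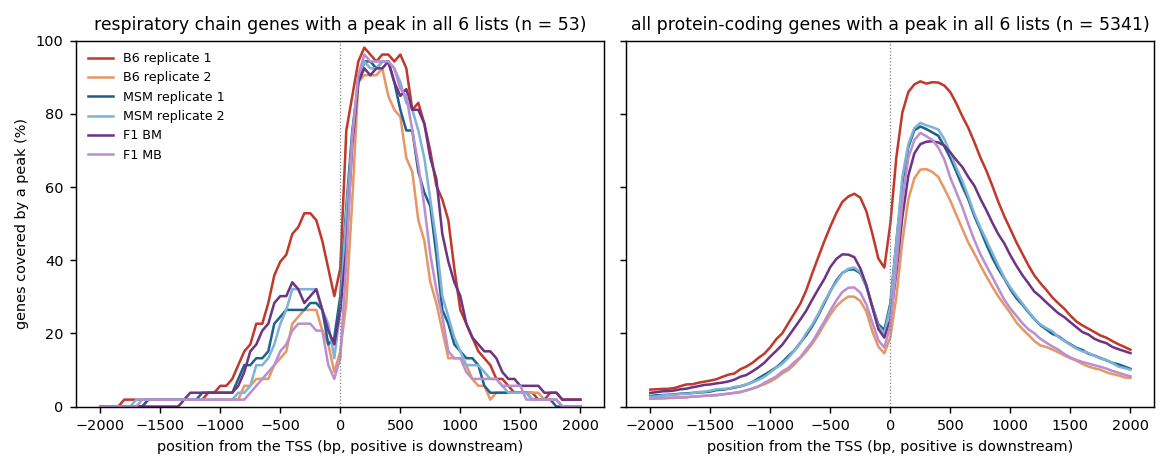
Percentage of genes covered by an H3K9ac peak (vertical axis) at each position from the TSS in bp (horizontal axis, positive is downstream), for the 53 members (left) and the 5341 genes (right) with peaks in all 6 lists, with 1 line for each library. The downstream maximum reaches 92.5 to 98.1% in the members, and the upstream shoulder is highest in B6 replicate 1 in both panels.

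Median upstream coverage was longer at members with a neighbouring gene in 4 of the 6 lists. In B6 replicate 1 the 21 of these members with another TSS within 1 kb had a median of 469 bp covered upstream, and the 32 without such a neighbour had 0 bp. The corresponding medians were 322 against 0 bp and 301 against 0 bp in the MSM libraries and 290 against 0 bp in F1 BM, whereas both groups were at 0 bp in B6 replicate 2 and F1 MB. Over all genes with peaks in all 6 lists the upstream median was longer with a neighbour in each list, at 645.5 against 351 bp in B6 replicate 1 and 466.5 against 169 bp in F1 BM. Downstream medians in the same groups of members lay between 599 and 856 bp. The part of neighbouring genes in these peaks was not tested.

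The median length covered at the 53 members was 1100 and 704 bp in B6, 805 and 771 bp in MSM, 928 bp in F1 BM and 689 bp in F1 MB (replicates 1 and 2 in turn). The 5341 genes had 1405, 686, 936, 941, 1066 and 780 bp in the same order, so member regions were the shorter in every list but B6 replicate 2. B6 replicate 1 had the longest covered length at 36 of the 53 members and B6 replicate 2 the shortest at 28, the order in which the 2 lists differ over the whole genome.

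Fold enrichment, the ratio of signal to background given for each peak, was ranked within each list because its scale differs between lists. The strongest peak of a member had a median percentile of 81.8 in B6 replicate 1, 65.9 in B6 replicate 2, 81.5 in MSM replicate 1, 76.8 in MSM replicate 2, 77.3 in F1 BM and 65.7 in F1 MB. Medians over all genes with a peak were 72.1, 63.9, 67.2, 66.6, 65.1 and 63.7. The median over members was thus above the all-gene median in all 6 lists, by the least in B6 replicate 2 and F1 MB. Medians of complexes II, III and IV were also above the all-gene median in all 6 lists. Assembly factors of complex I were below it in B6 replicate 2 (61.2), MSM replicate 2 (40.5), F1 BM (55.1) and F1 MB (30.9). Accessory subunits of complex I were below it in B6 replicate 2 (61.5) and F1 MB (61.1). Core subunits of complex I were below it in MSM replicate 2 (65.6) and F1 MB (45.0).

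**Figure D3:**
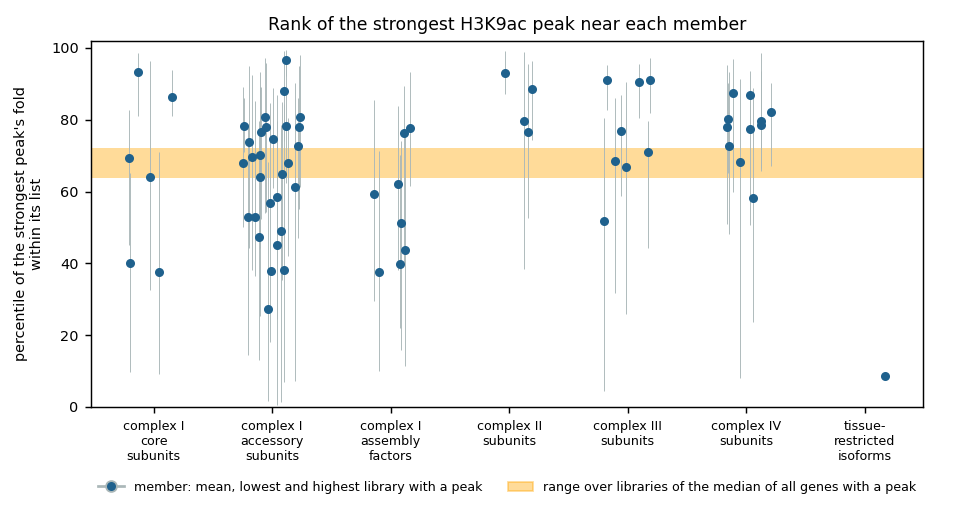
Percentile of fold enrichment within its list (vertical axis) of the strongest peak near each member, by role (horizontal axis). Points are means over the libraries with a peak, bars run from the lowest to the highest library, and the band spans the medians of all genes with a peak (63.7 to 72.1); all 4 complex II genes lie above the band and the single tissue-restricted isoform with a peak, Ndufa4l2, lies at 8.63.

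The 6 members with the highest mean percentile came from complexes I, II and III. Ndufa6, an accessory subunit of complex I (chr15:82350140-82354322, minus strand), had folds of 15.7 and 7.57 in B6, 12.0 and 11.1 in MSM, 7.34 in F1 BM and 13.3 in F1 MB. Its peaks covered 2493 and 2003 bp in B6, 1938 and 1838 bp in MSM, 2472 bp in F1 BM and 1852 bp in F1 MB, and it ranked at a mean percentile of 96.6. A separate peak upstream of Ndufa6 was present in all 6 lists, although the nearest TSS of another protein-coding gene was 15363 bp away. Non-coding and alternative starts were not examined.

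Ndufs3, a core subunit of complex I (chr2:90894634-90904827, minus strand), had folds of 15.9 and 8.08 in B6, 7.13 and 12.5 in MSM, 5.83 in F1 BM and 10.3 in F1 MB (mean percentile 93.2). It shares its promoter with Kbtbd4, whose TSS is 87 bp away. Uqcrc2, a core protein of complex III (chr7:120635176-120659524, plus strand), had 12.7 and 7.17 in B6, 9.89 and 9.72 in MSM, 6.11 in F1 BM and 6.64 in F1 MB (91.1). In each list the summit of its strongest peak was 206 to 253 bp downstream of the TSS. Uqcrq, a small subunit of complex III (chr11:53427922-53430831, minus strand), had 14.3 and 6.32 in B6, 10.2 and 11.9 in MSM, 6.13 in F1 BM and 6.54 in F1 MB (91.1). Uqcrfs1, the Rieske iron-sulfur protein, had a mean percentile of 90.4 and is described with the strain differences.

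Sdhb, with a mean percentile of 92.9, was the remaining one of the 6 and belongs to complex II, the complex that links the citric acid cycle to the chain and is made of 4 nuclear-encoded proteins. At Sdhb, the iron-sulfur subunit (chr4:140961203-140979193, plus strand), peaks covered 2063 and 1547 bp in B6, 1735 and 1973 bp in MSM, 1990 bp in F1 BM and 1650 bp in F1 MB. At Sdhd, a membrane anchor (chr9:50596357-50603812, minus strand), they covered 1912 and 1341 bp in B6, 1949 and 1782 bp in MSM, 2173 bp in F1 BM and 1467 bp in F1 MB. These were the widest of the complex II genes in all 6 lists, and the B6 and MSM values of each gene overlapped.

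Sdha, the flavoprotein that oxidises succinate (chr13:74322254-74350280, minus strand), was covered over 1333 and 724 bp in B6, 1207 and 650 bp in MSM, 1007 bp in F1 BM and 1095 bp in F1 MB. Sdhc, the other membrane anchor (chr1:171127165-171150603, minus strand), was covered over 959 and 851 bp in B6, 932 and 1208 bp in MSM, 1501 bp in F1 BM and 608 bp in F1 MB. Strain values again overlapped at both. Sdhd and Sdha share their promoters with Timm8b, 98 bp away, and Ccdc127, 29 bp away.

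Several complex IV subunits have a form used in liver and most tissues and a second form used in heart and skeletal muscle (Cox6a2, Cox7a1, Cox8b), testis (Cox6b2) or lung (Cox4i2). In the 5 such pairs the widely used form had peaks in all 6 lists and its partner had none. Cox6b1 was covered over 707 and 463 bp in B6, 747 and 667 bp in MSM, 755 bp in F1 BM and 659 bp in F1 MB. Cox8a was covered over 937 and 550 bp in B6, 711 and 737 bp in MSM, 689 bp in F1 BM and 576 bp in F1 MB. The B6 and MSM values overlapped in both.

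Cox7a2 had 1256 and 1005 bp in B6, 1036 and 740 bp in MSM, 1665 bp in F1 BM and 868 bp in F1 MB. Cox6a1 had 705 and 560 bp in B6, 1043 and 832 bp in MSM, 338 bp in F1 BM and 721 bp in F1 MB, so that both MSM values were above both B6 values, by 127 bp. The fifth, Cox4i1, is described with the strain differences.

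**Figure D4:**
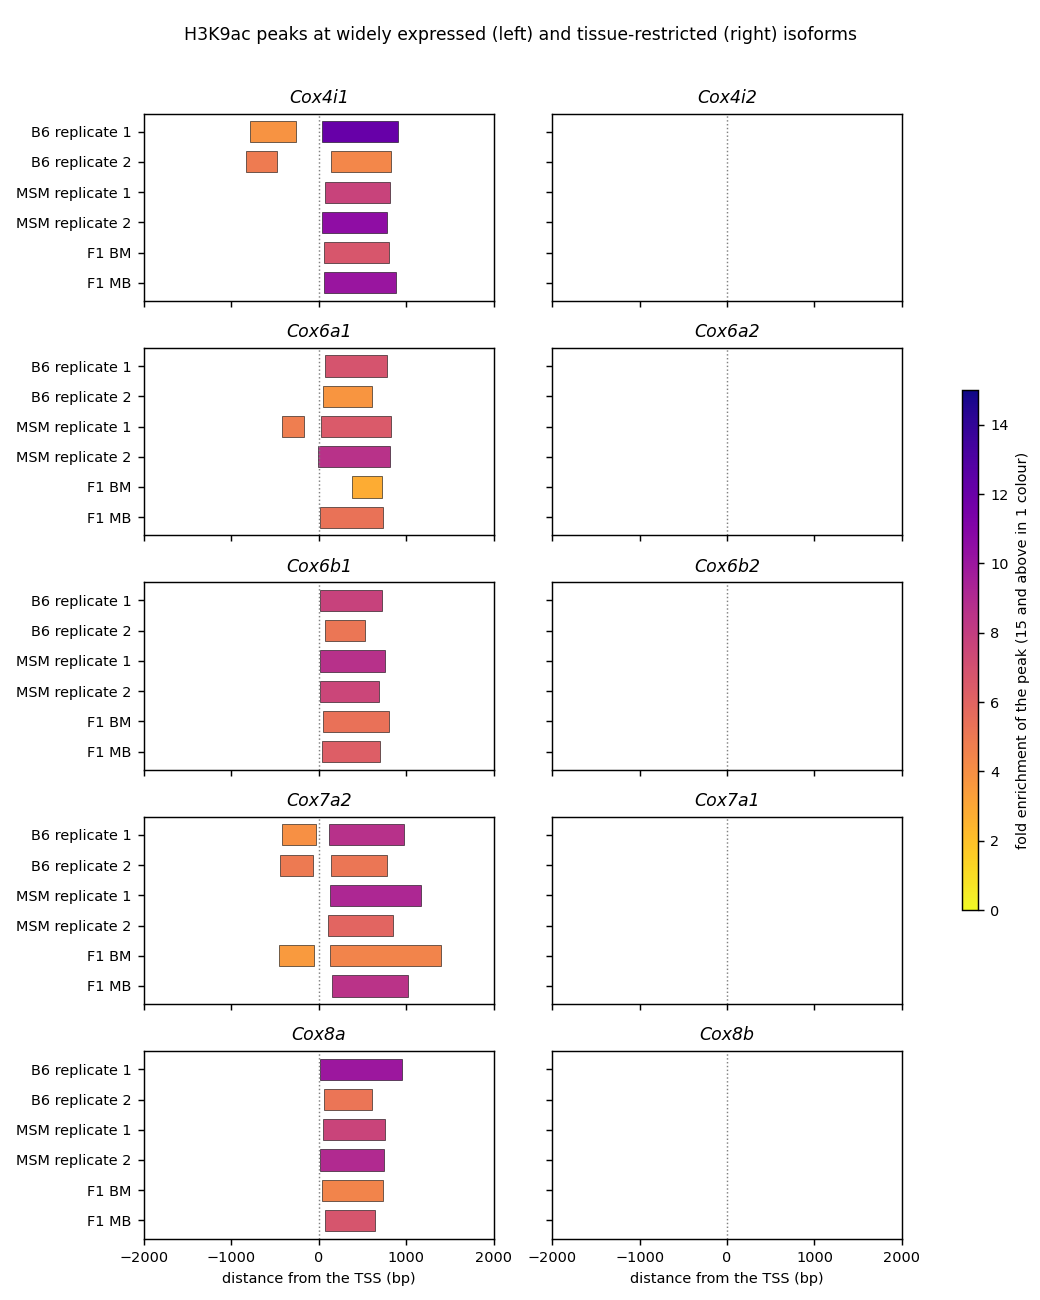
H3K9ac peaks (boxes, coloured by fold enrichment) by distance in bp from the TSS (horizontal axis) in each of the 6 libraries (rows), for widely used complex IV isoforms (left) and their tissue-restricted partners (right). All 5 panels on the right are empty, while those on the left hold a peak downstream of the TSS in all 6 libraries.

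For the partners, the nearest peak in any list was 15890 bp from the TSS of Cox4i2, 30857 bp from Cox6a2, 12299 bp from Cox6b2, 10118 bp from Cox7a1 and 4846 bp from Cox8b. The testis isoforms Cox8c and Cox7b2 likewise had none within 2 kb, with the nearest at 20871 and 619359 bp. Ndufa4l2, a hypoxia-induced relative of the complex IV subunit Ndufa4, had 1 peak of 433 bp in B6 replicate 1 from 1362 to 1794 bp downstream of the TSS, with a fold of 3.19, and none in the other 5 lists. Of the marker genes of heart and skeletal muscle 0 of 5, and of those of testis 0 of 4, had peaks in all 6 lists, and lung markers were not examined. Of these 9 genes only Actc1 had any peak, of 282 and 73 bp in MSM and 169 bp in F1 BM.

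Outside the tissue-restricted isoforms, 15 of 68 members lacked a peak in at least 1 list. Cox7a2l, a factor that joins complexes III and IV into supercomplexes, had none in any list. Its annotated start lies 3000 bp upstream of that of its principal transcript. At the principal start Cox7a2l was covered over 1241 and 514 bp in B6, 371 and 484 bp in MSM, 1245 bp in F1 BM and 714 bp in F1 MB. With principal starts for every gene, 55 of 76 members had peaks in all 6 lists and none of the 68 was without a peak.

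Absence was most frequent in B6 replicate 2, the shortest list. It alone lacked a peak at 6 members, the accessory subunits Ndufa2, Ndufab1 (the mitochondrial acyl carrier protein) and Ndufb11, the NADH-binding core subunit Ndufv1, and the assembly factors Ndufaf3 and Ndufaf4. In the other lists Ndufv1 was covered over 963 bp in B6 replicate 1, 689 and 705 bp in MSM, 803 bp in F1 BM and 474 bp in F1 MB. Ndufa2 had 1541 bp in B6 replicate 1, 986 and 945 bp in MSM, 1206 bp in F1 BM and 869 bp in F1 MB, and Ndufb11 had 1590 bp, 986 and 1075 bp, 1580 bp and 904 bp in the same order. B6 replicate 1 was thus the highest at all 3. Ndufaf3 had 1367 bp in B6 replicate 1, 1051 and 355 bp in MSM, 537 bp in F1 BM and 330 bp in F1 MB, so that the MSM libraries differed by more than at any of the other 5. Ndufab1 was covered over only 457 bp in B6 replicate 1, 300 and 663 bp in MSM, 276 bp in F1 BM and 349 bp in F1 MB, yet its strongest peak ranked at a mean percentile of 88.1.

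Other members lacked peaks in further lists. Ndufa3 had 433 bp in B6 replicate 1, 333 and 264 bp in MSM and 263 bp in F1 MB, and the assembly factor Ndufaf2 had 638 bp in B6 replicate 1, 523 and 282 bp in MSM and 222 bp in F1 MB. Both lacked a peak in B6 replicate 2 and F1 BM. Ndufaf7, a methyltransferase that acts on complex I during its assembly, had 565 bp in B6 replicate 1, 366 and 350 bp in MSM and 502 bp in F1 BM. All its peaks lay upstream of its TSS, and the TSS of Cebpz is 70 bp away.

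Ndufv3, an accessory subunit, had 655 and 272 bp in B6, 219 bp in MSM replicate 1 and 495 bp in F1 BM. Ndufs8, an iron-sulfur core subunit, had 1114 and 225 bp in B6, 1124 and 292 bp in MSM and 232 bp in F1 BM, and no peak in F1 MB. Ndufa1, an X-linked accessory subunit, had 350 bp in B6 replicate 1 alone, from -417 to -68 bp, and the TSS of Rnf113a1 is 82 bp away. No member was present in both libraries of one strain and absent from both of the other except Ndufaf5.

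For the comparison of strains, a gene was called further in a strain if each of that strain's libraries covered at least 200 bp more around the TSS than each library of the other. By this rule 5 members were covered further in B6 (6.58%; 2.46% of all genes and 5.27% of genes with a peak in at least 1 list). In the other direction 1 member was covered further in MSM (1.32%; 0.758% of all genes and 1.62% of genes with a peak). Of members with a peak in at least 1 list the shares were 5 and 1 of 67, so against genes with peaks these counts are near the background. Across all members the median covered length came to 790 ± 361 bp for B6 and to 737.75 ± 0.354 bp for MSM (mean ± SD of the library medians, n = 2), a difference of -52.25 bp that is within the spread of the B6 libraries.

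**Figure D5:**
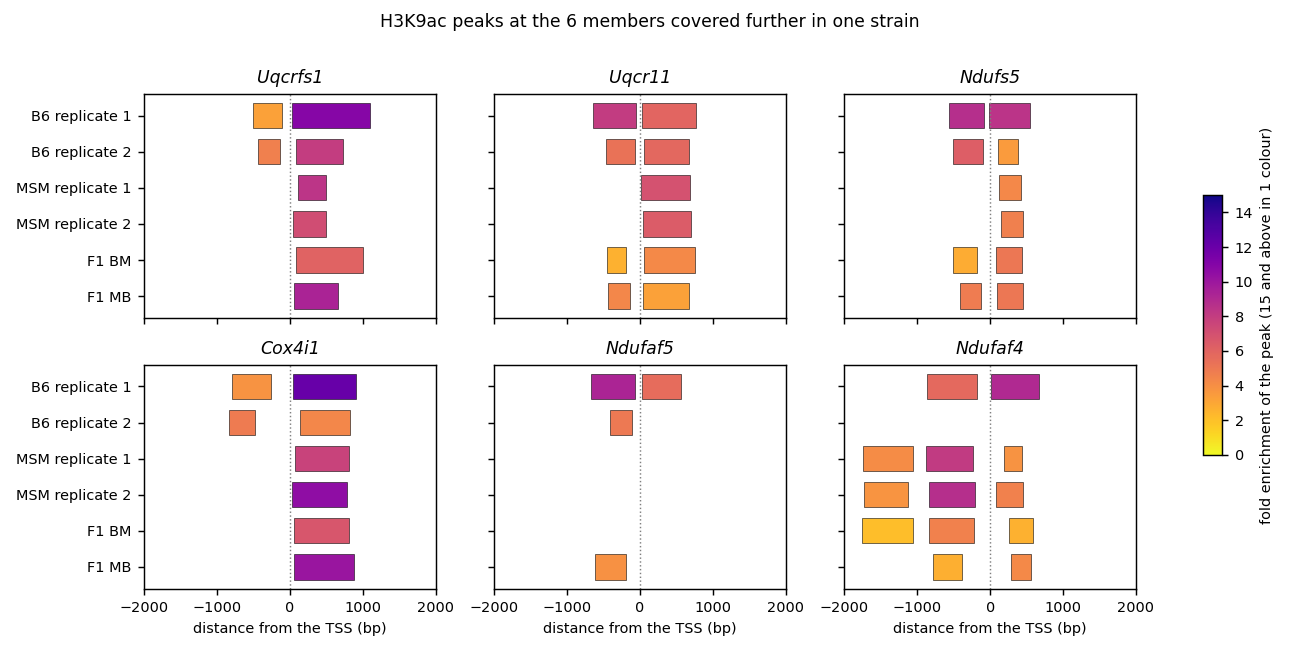
H3K9ac peaks (boxes, coloured by fold enrichment) by distance in bp from the TSS (horizontal axis) in each of the 6 libraries (rows) for the 6 members covered further in one strain. In the first 5 panels both B6 libraries carry a box upstream of the TSS that both MSM libraries lack, and at Ndufaf4 both MSM libraries and F1 BM carry a box beyond -1000 bp.

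Uqcrfs1, the Rieske protein that passes electrons within complex III (ENSMUSG00000038462.3, chr13:30540308-30545362, minus strand), had the widest gap. Its peaks covered 1474 and 960 bp in B6, 385 and 451 bp in MSM, 928 bp in F1 BM and 597 bp in F1 MB. The strains did not overlap and were 509 bp apart, with both F1 values between them. A peak from -510 to -107 bp in B6 replicate 1 and from -440 to -130 bp in B6 replicate 2 had no counterpart in MSM or in either F1 library. The downstream peak also ended nearer the TSS in MSM, at 497 and 493 bp, than in B6, at 1099 and 728 bp.

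Ndufs5, an accessory subunit of complex I (ENSMUSG00000028648.13, chr4:123712710-123718202, minus strand), was covered over 1033 and 672 bp in B6, 305 and 299 bp in MSM, 673 bp in F1 BM and 629 bp in F1 MB. The gap was 367 bp and both F1 values were above both MSM values. Ndufs5 was not called further in B6 when only peaks with −log10 q of at least 5 were kept. Its upstream peak ran from -563 to -91 and from -512 to -105 bp in B6, from -506 to -184 bp in F1 BM and from -407 to -133 bp in F1 MB, and was absent from both MSM lists. In both B6 libraries this upstream peak had the higher fold, at 8.75 against 8.45 downstream in replicate 1 and 6.29 against 3.50 in replicate 2. The nearest TSS of another protein-coding gene was 32143 bp away.

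Uqcr11, a small subunit of complex III (ENSMUSG00000020163.12, chr10:80402997-80406830, minus strand), was covered over 1327 and 1008 bp in B6, 667 and 651 bp in MSM, 961 bp in F1 BM and 924 bp in F1 MB. The gap was 341 bp and the F1 values lay between the strains. Its upstream peak, from -644 to -53 and from -461 to -66 bp in B6, from -452 to -196 bp in F1 BM and from -445 to -144 bp in F1 MB, was absent from both MSM lists. It overlaps part of the promoter stretch printed earlier in both B6 lists and F1 MB, and lies beyond that stretch in F1 BM. The downstream peak ended between 667 and 768 bp in all 6 lists.

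Cox4i1 (ENSMUSG00000031818.12, chr8:120668222-120674207, plus strand), the widely used form of a regulatory subunit of complex IV, was covered over 1395 and 1045 bp in B6, 748 and 754 bp in MSM, 749 bp in F1 BM and 826 bp in F1 MB. Both F1 values were near those of MSM. The upstream peak, from -787 to -260 and from -833 to -477 bp in B6, was in no other list, and the downstream peak ended between 783 and 907 bp in all 6. The TSS of Gm27021 lies 143 bp from that of Cox4i1.

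Ndufaf5, which hydroxylates a core subunit during assembly of complex I (ENSMUSG00000027384.6, chr2:140170649-140203689, plus strand), was covered over 1135 and 295 bp in B6 and 425 bp in F1 MB and had no peak in MSM or F1 BM. It shares its promoter with Esf1, whose TSS is 85 bp away. The peak common to both B6 libraries and F1 MB was upstream, from -667 to -71, -408 to -114 and -616 to -192 bp. Only B6 replicate 1 had a peak inside the gene.

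Ndufaf4, another assembly factor (ENSMUSG00000028261.13, chr4:24898083-24905001, plus strand), was the member covered further in MSM. It was covered over 1342 and 0 bp in B6, 1566 and 1605 bp in MSM, 1635 bp in F1 BM and 683 bp in F1 MB. The gap of 224 bp is close to the limit, and the B6 libraries themselves differed by the whole of the B6 replicate 1 value. A peak from -1743 to -1062 and from -1725 to -1124 bp in MSM and from -1757 to -1065 bp in F1 BM was absent from B6 and F1 MB.

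The difference of means, MSM minus B6, was -799 bp at Uqcrfs1, -550.5 bp at Ndufs5, -508.5 bp at Uqcr11, -469 bp at Cox4i1, -715 bp at Ndufaf5 and 914.5 bp at Ndufaf4. The pooled SDs of the replicates were 259, 181, 160, 175, 420 and 671 bp in the same order (n = 2 a strain). These members were chosen for strain values that do not overlap, so the differences are a description and no test of them is given. The smallest p of an exact two-sided permutation test with 2 libraries a strain would be 0.33. With lists of the same covered length the Uqcr11 difference turned to 155 bp, Ndufaf5 came to -147.5 bp and Cox4i1 to -205 bp. With the same number of peaks Ndufaf5 came to -446 bp and Cox4i1 to -205 bp. Without B6 replicate 1 the difference was -294 bp at Cox4i1, -295 bp at Ndufaf5 and 1585.5 bp at Ndufaf4, and without B6 replicate 2 it was -1135 bp at Ndufaf5 and 243.5 bp at Ndufaf4. Just outside the limit of 200 bp were Ndufa8, higher in B6 by 184 bp, Ndufb2, higher in B6 by 117 bp, and Cox6a1, higher in MSM by 127 bp.

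All 5 members further in B6 had a peak upstream of the TSS in both B6 libraries and none there in either MSM library, a pattern looked for in every gene after it was seen. It was present at 7 of 76 members (9.21%), against 1.13% of all genes. Of members with a peak in at least 1 list it was present at 7 of 67, against 2.42% of such genes. The other members were Cox7a2, with upstream peaks from -427 to -34 and from -440 to -68 bp in B6, and Ndufa5, a complex I subunit whose B6 peaks cross the TSS, from -206 to 294 and from -117 to 189 bp. Upstream coverage was also seen at 4 of the 7 members in F1 BM and at 3 in F1 MB.

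The opposite pattern, upstream in both MSM and neither B6 library, was at 1 member, Cox6a1 (0.301% of all genes and 0.644% of genes with a peak), where MSM replicate 1 had a peak from -419 to -176 bp and MSM replicate 2 one that began at -14 bp. On the downstream side no member had coverage in both libraries of one strain and neither of the other, in either direction, against 1.94% (B6) and 0.712% (MSM) of genes with a peak in at least 1 list. The 7 members became 4 when all lists held the same number of peaks (Cox4i1, Cox7a2 and Uqcrfs1 left out), beside 1.68% of all genes. They became 1, Ndufs5, when all covered the same length, beside 0.876% of all genes. The part of list length, and of mapping MSM reads to the B6 sequence, in this pattern was not tested.

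Genes that work beside the chain were counted in the same way. Of 16 subunit genes of the ATP synthase, complex V, 14 had peaks in all 6 lists, and of the cytochrome c genes the somatic Cycs did while the testis form Cyct had no peak. The count was 7 of 12 for complex IV assembly factors, 5 of 10 for assembly factors of complexes II and III and 7 of 12 for transcriptional regulators of mitochondrial genes, beside 24.4% of all genes. At principal transcript starts the count was 15 of 16 for complex V and 8 of 12 for complex IV assembly factors, beside 24.9% of all genes. The counts of the other lists stayed the same. Among the regulators Nrf1, Gabpa, Gabpb1 and Yy1, whose binding motifs were searched above, all had peaks in all 6 lists, and Ppargc1a had none at its annotated start. At principal starts each of the 12 regulators, Ppargc1a included, had a peak in at least 1 list. The peaks counted for Gabpa are those counted for the complex V subunit Atp5j, with the same covered length in each list. Of these 52 genes, Cox11 and the complex V subunit Atp5g2 were covered further in B6, by 478 and 215 bp, and none further in MSM, where the shares of all genes were 2.46% and 0.758%.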

How the data were processed

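H3K9ac ChIP-seq libraries of adult liver (50-bp read pairs; 2 B6, 2 MSM, 1 F1 BM, 1 F1 MB) were deposited as 1 narrowPeak list per library, without pooling. The 6 input libraries were not analysed here. The authors' methods name Trim Galore and Bowtie 2 for mapping to mm10 (GRCm38), while the submitters' processing notes list Trim Galore, HISAT2, SAMtools and MACS2. The threshold and the use of the input as control are not given in the sources used here. MSM reads were mapped to the B6 sequence, so reads over diverged sequence may be lost. The deposited fold enrichment is a linear ratio of signal over background at the summit. The deposited −log10 p-values and −log10 q-values came from the authors' peak caller, and the lowest −log10 q of a list was 1.30 to 1.35. The summit offset in bp was also read, and the deposited score was not used. Read counts are not part of the lists and the sequencing totals the study states were not used here, so no depth or counting intervals are given, and an absent peak cannot be told from one too weak for its list.

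Positions were compared in Python 3.11.15 using numpy 2.4.6, pandas 2.3.3 and scipy 1.17.1, and figures were drawn with matplotlib 3.10.9. The TSS was the start of the longest GENCODE M21 gene of a symbol, and peaks counted from an overlap of 1 bp with the 2 kb on each side. Covered length was the number of bases of that window under peaks. A gene was called further in one strain when both libraries exceeded both of the other by at least 200 bp. An exact two-sided permutation of the strain labels has 6 assignments and a smallest p of 0.33, and none is given for members chosen by this rule. The functions were tested on simulated peak lists. Counts cover all 76 members, and the individual values of 1 member are not reported here. Members and gene lists were chosen with earlier results of these data known. Values in every library were given for complex II, the 5 isoform pairs, the 6 members with the highest mean percentile, members lacking a peak in at least 1 list (up to 15), and up to 8 members a direction with the largest strain gap. Sequences were to be shown for those of these members with most motif matches, and Ndufs3 was left out because its matches lie beyond the printed stretch. Alternatives were windows of 1 and 5 kb, −log10 q of at least 5, principal transcript starts, lists cut to the same number of peaks or covered length, summits in place of overlap, other gaps, a replicate block, and leaving out members with close neighbours or 1 library at a time.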

Additional observations from a re-analysis of the deposited data

How the results depend on the processing

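The lists differ in length and B6 replicates 1 and 2 are the longest and the shortest, which limits the strain comparison. The 53 members with peaks in all 6 lists became 30 with the same covered length in every list (11.9% of all genes in place of 24.4%), 32 of 46 without members that have another TSS within 2 kb, and 53 to 59 when 1 library was left out. The 5 members further in B6 became 3 without close neighbours, 1 with a gap of at least 500 bp and 11 with any gap. The 1 member further in MSM became 8 with the same covered length (3.16% of all genes). It became 0 with a window of 1 kb, 0 with the gap of 500 bp and 3 with any gap. No share of all genes is given for the window, neighbour and gap settings, so those counts cannot be set against a background. Leaving out 1 parental library gave 5 to 30 members further in B6 and 1 to 26 further in MSM. Without B6 replicate 2, 30 were further in B6 (29.1% of all genes), and without MSM replicate 2, 8 were (4.33%). Further in MSM were 26 without B6 replicate 1 (16.8% of all genes), 4 without MSM replicate 1 (1.9%) and 2 without MSM replicate 2 (1.73%). Of the 5 members, 4 were shared with lists of the same number of peaks, 2 with lists of the same covered length and 4 with −log10 q of at least 5. Ndufs5 was the call lost with the stricter q. Ndufaf4 was not called with the same number of peaks or with the stricter q. The median difference of -52.25 bp became 258.5 bp with the same covered length, 29.25 bp with an equal number of peaks and -307.75 to 203.25 bp without 1 library. Uqcr11 turned from -508.5 to 155 bp with the same covered length. With the replicate numbers as a block, 7 members were further in B6 and 2 in MSM, and the median difference was -23.25 bp. No share of all genes is given for the block either. Over 10162 genes same-numbered libraries did not deviate together (r = -0.00934 across genes, 2 pairs), so the numbers are only names. The smallest p of the blocked exact test was 0.5.

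The upstream pattern and all its alternatives were added after seeing the data. Its counts of 7 (B6) and 1 (MSM) became 4 and 2 with the same number of peaks and 1 and 3 with the same covered length, and 7 to 13 and 1 to 12 without 1 library (13 without B6 replicate 2, 12 without B6 replicate 1), beside 1.68% and 0.548% of all genes with the same number of peaks, 0.876% and 0.917% with the same covered length, 9% (B6) without B6 replicate 2 and 4.87% (MSM) without B6 replicate 1. TATAAA was in 3 member promoters when only 100 bases before to 50 after the start were searched, and counts of the other motifs stayed within 1.5 times. The causes of these changes were not tested, and no depth was used.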
